A study of Mus musculus with 84 samples.

Results

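Transcripts of 10 circadian clock genes were followed in the livers of 84 mice. The genes were Bmal1 (also named Arntl), Clock and Npas2, the period genes Per1, Per2 and Per3, the nuclear receptor genes Nr1d1 and Nr1d2, and the transcription factor genes Dbp and Tef. They were chosen by name, as the rows of the count table whose Ensembl identifier belongs to these symbols, and the rule uses no measured value, although earlier results of these data were known when the genes were chosen. A row was matched for 9 of the 10 genes among the 17695 genes of the table. No row matched Nr1d2 (ENSMUSG00000021775), which is not analysed here. Of the 9 genes, 7 were among the 10415 genes with a median count above 8 over all mice, which are the genes that entered the tests, and Per1 and Per2 lay under that minimum.

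Male B6C3F1 mice, 8 weeks old when exposure began, ate AIN-93G diet holding an organophosphate pesticide (OPP) for 7 days, and RNA came from a mix of the left lateral, caudate and right medial lobes of each liver. The OPPs were fenthion (FT) at 2.5, 5, 10 and 20 ppm, methidathion (MT) at 10, 25, 50 and 100 ppm, and parathion (PT) at 20, 40 and 80 ppm, beside a control group at 0 ppm. Each of the 12 groups held 7 mice, of which 2 belonged to experimental block 1, 3 to block 3 and 2 to block 4. RNA of 77 mice was isolated by EA (Expression Analysis Genomic Services) and that of 7 mice by EPA (the U.S. EPA), namely 2 control, 2 FT 20 ppm, 2 MT 100 ppm and 1 MT 10 ppm mice. Mice were housed in groups under a light-dark cycle, but the labels give no cage, so the p-values treat the mice as independent. The hour at which each liver was taken is not given in the sources used here.

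The clock of a liver cell is a feedback loop of transcription. BMAL1 pairs with CLOCK or with its relative NPAS2, binds E-boxes and drives the genes of its own repressors, the PER and CRY proteins, and those of NR1D1, NR1D2, DBP and TEF. NR1D1 and NR1D2 in turn repress Bmal1 and Npas2 through ROR elements, while DBP and TEF activate genes through D-boxes, so the transcripts of the E-box arm and those of Bmal1 and Npas2 peak at opposite times of day. Feeding time, glucocorticoids and temperature can all shift the clock of the liver. In a set of livers the balance of both arms therefore depends on the time of sampling as well as on treatment.

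The response elements named above were searched for in the 300 bases around the start of each gene (250 before it and 50 after it, RefSeq promoter table of GRCm38.p6), because the members moved together in the data described further on. Windows were found for 9 of the 10 genes, 14 in all, and 13 of them matched GRCm39 exactly at 1 place, which gave the coordinates below. The E-box CACGTG, a palindrome, was in windows of 2 members (Per1 and Tef) and in 7.15% of all 32851 windows of the table. The core of the ROR element, AGGTCA on either strand, was in windows of 4 members (Bmal1, Clock, Per1 and Nr1d2) and in 16.3% of all windows. The D-box TTATGTAA on either strand was in the window of Per3, at 2 places, and in 0.938% of all windows. No window of Dbp, Nr1d1 or Npas2 held these letters, which says nothing about the factors. The runs below, 30 bases each, 5′ to 3′ on the strand of the gene, show the match in capitals with its position from the start of the transcript. They are shown because each is the letters of an element that the 2 arms of the loop use, and a match is a description of letters, not a bound site.
Per3, D-box at -205, chr4:151129309-151129338, minus strand: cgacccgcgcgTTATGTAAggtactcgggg
Per3, D-box at -158, chr4:151129262-151129291, minus strand: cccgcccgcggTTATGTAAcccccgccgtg
Tef, E-box at -127, chr15:81686735-81686764, plus strand: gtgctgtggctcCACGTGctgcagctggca
Tef, E-box at -138 of another start, chr15:81695465-81695494, plus strand: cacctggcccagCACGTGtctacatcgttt
Per1, E-box at -166, chr11:68989597-68989626, plus strand: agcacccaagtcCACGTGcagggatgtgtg
Bmal1, ROR element core at 32, chr7:112806737-112806766, plus strand: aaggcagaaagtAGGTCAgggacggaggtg

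TempO-Seq counts ligated pairs of short probes, so a count depends on the probe as well as on the transcript, and levels were compared between mice for 1 gene at a time, never between genes. Total counts lay between 6950381 and 15300589 per mouse (median 11581335). Levels are given as CPM, the count of a gene per 1000000 counts of the same mouse. A floor of 3 counts equals 0.196 to 0.432 CPM, depending on the mouse. Hepatocyte markers (Alb, Apoa1, Ttr, Cps1, Asgr1 and Tat) summed to between 15777 and 38541 CPM in every mouse, and cholangiocyte markers (Krt7, Krt19, Sox9 and Epcam) to between 0.169 and 13.7 CPM. In bulk tissue, fewer cells of a type and less RNA per cell cannot be told apart. On GRCm39, Dbp (chromosome 7, 45354512 to 45359627) overlaps Sphk2 on the other strand, Nr1d1 (chromosome 11, 98658752 to 98666188) overlaps Thra, and Clock (chromosome 5, 76342860 to 76452846) overlaps Tmem165. The strand used in counting is not given in the sources used here, so shared reads are possible for these 3 genes. The count of Dbp was not a whole number in 82 mice. For Nr1d1 and for Clock this was so in 0 mice.

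The members with the deepest counts were Dbp (median count 656 per mouse), Clock (470) and Nr1d1 (336), followed by Bmal1 (80), Per3 (22), Tef (14) and Npas2 (9.5). Counts of Per1 had a median of 2, with 0 in 22 mice and at most 33. Counts of Per2 had a median of 0, with 0 in 43 mice and at most 5. At these counts most values of both genes lie at or under the floor of 3 counts, and their fold changes depend on few counts.

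The median absolute log2 fold change of the 7 tested members was 1.94 for block 3 against block 1 and at most 0.942 among the 11 dosed groups against control, each over all blocks. Within block 4 alone it was 1.97 for PT 80 ppm against control. All 7 tested members differed between block 1 and the other blocks, with the 2 arms of the loop moved in opposite directions. Dbp, Per3, Tef and Nr1d1 were lower in blocks 3 and 4 than in block 1, and Bmal1, Npas2 and Clock were higher. Every group gave 2, 3 and 2 mice to blocks 1, 3 and 4, so the comparison asks whether levels of these genes differed between blocks whatever the dose. Time of sampling and other differences between blocks are not given and cannot be told apart.

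Dbp, an output regulator of the clock driven by E-boxes, lay between 52.1 and 725 CPM in the 24 mice of block 1 (median 421). In the 60 mice of blocks 3 and 4 it lay between 7.07 and 590 CPM (median 27.4). The ranges overlapped, but in 10 of the 12 groups both block 1 mice lay above all 5 other mice. Its log2 fold change was -3.15 ± 0.33 (SE) for block 3 against block 1, with adjusted p = 2.24e-12 by edgeR's quasi-likelihood test, which is 8.85 times lower, and -3.52 ± 0.39 for block 4 against block 1.

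Per3, a period gene that carries the D-boxes shown above, went from 2.16 to 20.8 CPM in block 1 (median 10.7). In the other blocks it went from 0.116 to 12.9 CPM (median 1.20). Both block 1 mice lay above the rest of their group in 8 of 12 groups, and the log2 fold changes were -2.55 ± 0.22 for block 3 and -2.85 ± 0.26 for block 4. By the F test over blocks, Per3 had the 2nd smallest p of all 10415 genes and Dbp the 14th.

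Tef, a relative of Dbp with the E-boxes shown above, lay between 1.81 and 8.02 CPM in block 1 (median 4.01) and between 0.0886 and 5.62 CPM elsewhere (median 0.891). Nr1d1, the repressor of Bmal1, lay between 7.77 and 61.99 CPM in block 1 (median 41.5) and between 2.11 and 57.4 CPM elsewhere (median 20.4). Both block 1 mice were above the rest of the group in 9 of 12 groups for Tef but in 5 of 12 for Nr1d1, whose ranges overlapped broadly. Log2 fold changes for block 3 against block 1 were -1.67 ± 0.19 for Tef and -0.72 ± 0.19 for Nr1d1.

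The activators took the other direction. Bmal1 lay between 0.292 and 9.93 CPM in block 1 (median 1.59) and between 0.779 and 15.7 CPM in the other blocks (median 8.51), a log2 fold change of 1.94 ± 0.22 for block 3 against block 1. Npas2 lay between 0 and 0.862 CPM in block 1 (median 0.144) and between 0.0865 and 3.15 CPM elsewhere (median 1.01), a log2 fold change of 2.64 ± 0.27, although its levels in block 1 were at or under the floor of 3 counts in 20 of the 24 mice. Both block 1 mice lay below the rest of their group in 7 of 12 groups for Bmal1 and in 10 of 12 for Npas2. Clock, whose transcript is known to cycle weakly in the liver, moved least, with medians of 34.8 CPM in block 1 and 43.5 CPM elsewhere and a log2 fold change of 0.32 ± 0.07.

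These calls are to be read against a background of many differences between blocks, since 40.0% of the 10415 genes were called for block 3 against block 1 (18.8% higher and 21.2% lower), 38.1% for block 4 against block 1 (18.2% higher and 19.9% lower) and 39.9% by the F test. At a fold change of at least 2 the background was 0.643% for block 3 and 0.816% for block 4, and 5 of the 7 members met it in each (Bmal1, Npas2, Per3, Dbp and Tef). Over all genes tested the median absolute log2 fold change between blocks 3 and 1 was 0.13. No member was called between blocks 4 and 3 by edgeR, DESeq2 or limma, 0 had an unadjusted p under 0.05, and 0.0384% of all genes were called. The 95% intervals of these log2 differences ran from -1.03 to 0.29 for Dbp, from -0.83 to 0.23 for Per3 and from -0.40 to 0.33 for Bmal1, so differences of that size between blocks 3 and 4 could not be seen. Sphk2, on the other strand at Dbp, differed by -0.31 and Thra, on the other strand at Nr1d1, by 0.11 on the log2 scale between blocks 3 and 1, while Tmem165 at Clock differed by 0.34, like Clock itself.

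**Figure D1:**
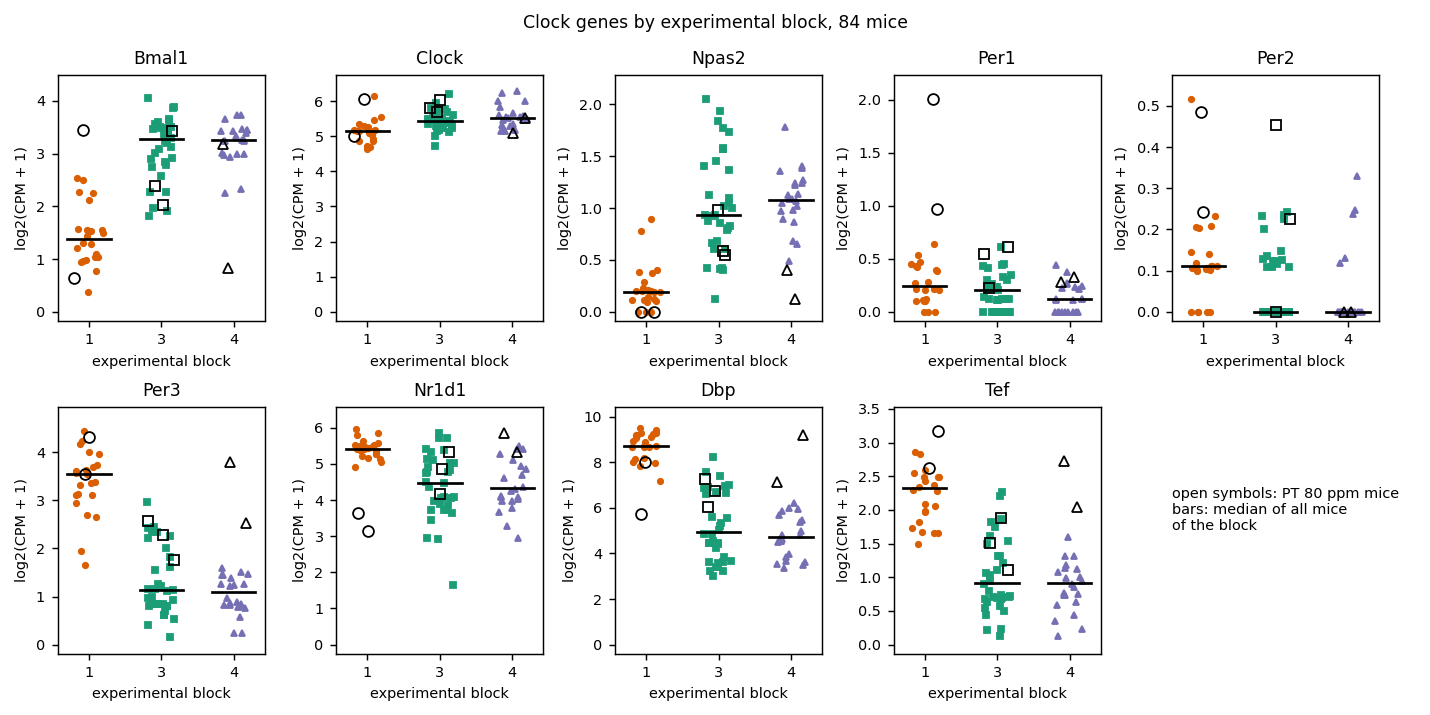
Level of each of the 9 clock genes with a row of counts in 84 mice, as log2(CPM + 1) on the vertical axis of each panel, by experimental block on the horizontal axis. Filled symbols are mice of the control group and of 10 dosed groups, open symbols the 7 PT 80 ppm mice and bars the median of all mice of the block. Block 1 lies high for Per3, Nr1d1, Dbp and Tef and low for Bmal1 and Npas2 (Dbp medians of 421 CPM in block 1 and 27.4 CPM in the other blocks).

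Other genes of the clock and its outputs were read from lists. Shares of all genes called are the 40.0% and 38.1% given above. Of 11 tested output genes of the liver clock, 10 differed between blocks 3 and 1 (9 lower and 1 higher) and all 11 between blocks 4 and 1 (10 lower and 1 higher). Among those lower in block 3 were Upp2, a uridine phosphorylase (log2 fold change -1.56 ± 0.16), Por, the electron donor of the cytochrome P450 enzymes (-1.31 ± 0.15), and Nampt, an enzyme of NAD synthesis (-0.73 ± 0.10). Elovl3, a fatty acid elongase, was higher (1.53 ± 0.22). Of 13 other clock factors, 7 were called between blocks 3 and 1, against a share of 40.0% over all genes, with a median log2 fold change of -0.13. Nfil3, the repressor at D-boxes, was higher (1.52 ± 0.15) and so was Cry1 (0.69 ± 0.16). Hlf, the sister of Dbp and Tef, was lower (-1.46 ± 0.13), as were Bhlhe41, Bhlhe40, Cry2 and Csnk1e.

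Clock genes still varied widely between mice beyond the additive terms for group, block and RNA isolator. After group, block and RNA isolator were removed, the residual SD of log2(CPM + 1) was 1.25 for Dbp, the 14th highest of 10415 genes, 0.752 for Nr1d1 (76th), 0.649 for Per3 (154th) and 0.633 for Bmal1 (167th). The median over all genes tested was 0.248, and Clock was near it at 0.264. Log values of genes with few counts are compressed by the added 1, so the spreads of Tef (0.447) and Npas2 (0.354) are not comparable with those of deeper genes.

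These deviations were shared between members. Of 21 pairs among the 7 genes, 18 had residuals correlated across the 84 mice (permutation test with 100000 resamples, two-sided, adjusted over the 21 pairs by Benjamini-Hochberg), 8 with a positive and 10 with a negative sign. Spearman's rho gave 18 pairs as well. The share of pairs of other genes that would pass was not computed, so the count describes these 7 genes alone. The signs divided the genes as the loop does, with Bmal1, Npas2 and Clock on 1 side and Nr1d1, Per3, Dbp and Tef on the other. A mouse with more Dbp than its group, block and isolator terms gave tended to have less Bmal1 (Pearson r = -0.77, Spearman rho = -0.70). Both had permutation p = 1e-05, the smallest the permutations can give, and adjusted p = 1.75e-05. The terms are additive, so a group change that differs between blocks stays in the residuals. Without the 2 mice farthest from the median of Bmal1 r was -0.69, and within blocks 1, 3 and 4 it was -0.80, -0.79 and -0.76.

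Among the positive pairs, Dbp rose and fell with Per3 (r = 0.82, rho = 0.85) and with Nr1d1 (r = 0.74, rho = 0.72), and Bmal1 with Npas2 (r = 0.61, rho = 0.64). Each of these 3 pairs had permutation p = 1e-05 and adjusted p = 1.75e-05, and kept its sign in all 3 blocks. Without the 2 mice farthest from the median of Per3, Nr1d1 and Bmal1, r was 0.81, 0.76 and 0.65. Of the 18 pairs, 16 had the same sign in every block, and the exceptions were Bmal1 with Clock and Clock with Per3, whose r in block 3 was -0.05 and 0.04. The 3 pairs that did not pass were Clock with Npas2 (r = 0.11, permutation adjusted p = 0.347), Clock with Dbp (r = -0.18, permutation adjusted p = 0.107) and Clock with Nr1d1 (r = -0.05, permutation adjusted p = 0.628). All values of a mouse share its library and total count.

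**Figure D2:**
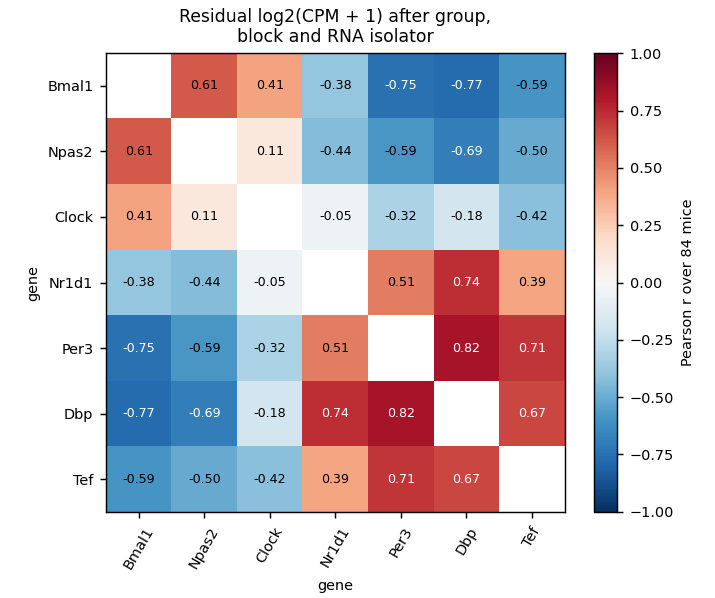
Pearson correlation between the residuals of log2(CPM + 1) of 7 clock genes over 84 mice, after group, block and RNA isolator were removed, with the genes on both axes and r printed in each cell. Red cells are positive and blue cells negative, and the 3 activators (Bmal1, Npas2 and Clock) are negative against the 4 genes of the other arm, with r = -0.77 for Bmal1 and Dbp. Clock with Dbp (-0.18) and Clock with Nr1d1 (-0.05) were weak and did not pass.

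The genes most like Dbp and Bmal1 in these residuals, among the other 10408 genes tested, are given as a description. The highest r with Dbp were those of Bhlhe41 (0.82), Gm5827 (0.80), Upp2 (0.77), Cebpa (0.73) and Tns2 (0.72), and among the lowest were those of Ppard (-0.84), Nfil3 (-0.79), Lonrf3 (-0.77) and Cdkn1a (-0.77). For Bmal1 the highest included Lgalsl (0.81), Chka (0.77), Lonrf3 (0.75) and Nfil3 (0.75), and the lowest were Upp2 (-0.72), Bhlhe41 (-0.69), Pex26 (-0.66), Psmb10 (-0.63) and Wee1 (-0.63). Lonrf3, Nfil3, Upp2 and Bhlhe41 stand at opposite ends for the 2 genes.

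Dose was then compared with control at each level, and all 11 comparisons share the same 7 control mice. Over the 10 dosed groups other than PT 80 ppm, none of the 70 combinations of 7 genes and a group passed. By edgeR 4 of the 70 had an unadjusted p under 0.05, the smallest adjusted p was 0.278, and DESeq2 and limma on log2(CPM + 1) also called 0. The share of all genes called was 0.00960% at FT 2.5 ppm, 0% at FT 5 ppm, 1.57% at FT 10 ppm, 0% at FT 20 ppm, 0% at MT 10 ppm, 0% at MT 25 ppm, 0.00960% at MT 50 ppm, 0.0768% at MT 100 ppm, 0.00960% at PT 20 ppm and 0% at PT 40 ppm. An unadjusted p under 0.05 was found for 10.7%, 7.59%, 17.7% and 3.98% of all genes at the 4 rising doses of FT, for 9.97%, 5.79%, 3.99% and 13.6% at those of MT, and for 5.90% and 8.51% at PT 20 and 40 ppm. The 4 combinations were Npas2 at MT 25 ppm (log2 fold change 0.94 ± 0.46), MT 100 ppm (1.00 ± 0.42) and PT 20 ppm (0.93 ± 0.46), and Tef at PT 40 ppm (0.85 ± 0.42).

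The design left wide intervals for these genes, because mice of 1 group differed so much. At FT 20 ppm the 95% interval of the log2 fold change ran from -0.47 to 2.05 for Dbp, from -0.90 to 0.66 for Bmal1 and from -0.67 to 0.81 for Nr1d1. At MT 100 ppm it ran from -0.97 to 1.53 for Dbp, from -0.47 to 1.05 for Bmal1 and from -0.42 to 1.08 for Nr1d1. Changes of up to about these sizes could not be seen. For Clock, with its small spread, the intervals were narrower, from -0.35 to 0.18 at FT 20 ppm and from -0.30 to 0.23 at MT 100 ppm.

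The F tests over all doses called 0 members for FT and 0 for MT (0.0768% and 0.0864% of all genes called), with 0 of 7 at an unadjusted p under 0.05 for each and 0 by limma on log2(CPM + 1). For PT they called 4, Tef (adjusted p = 0.00471), Npas2 (0.0221), Per3 (0.00420) and Dbp (0.00438), with 19.6% of all genes called.

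By level, the median of Dbp was 11.5 CPM at PT 20 ppm, 24.1 at MT 10 ppm, 27.5 at MT 25 ppm, 27.95 at MT 100 ppm, 31.4 in the control group, 40.3 at FT 2.5 ppm, 56.4 at FT 5 ppm, 61.99 at PT 40 ppm, 117 at FT 20 ppm, 119 at FT 10 ppm, and 129 at MT 50 ppm, and it was highest at PT 80 ppm (138). In every group the lowest mouse was at or under 52.1 CPM and the highest at or over 411 CPM, so neighbours in this order overlapped. Medians of Bmal1 lay between 3.86 CPM (FT 20 ppm) and 9.50 CPM (PT 20 ppm), with 8.49 CPM in the control group. Medians of Nr1d1 lay between 13.8 CPM (PT 20 ppm) and 40.1 CPM (PT 40 ppm), with 15.9 CPM in the control group. Those of Per3 lay between 0.792 CPM (PT 20 ppm) and 4.96 CPM (PT 80 ppm), and those of Clock between 36.8 CPM (MT 10 ppm) and 54.2 CPM (control).

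**Figure D3:**
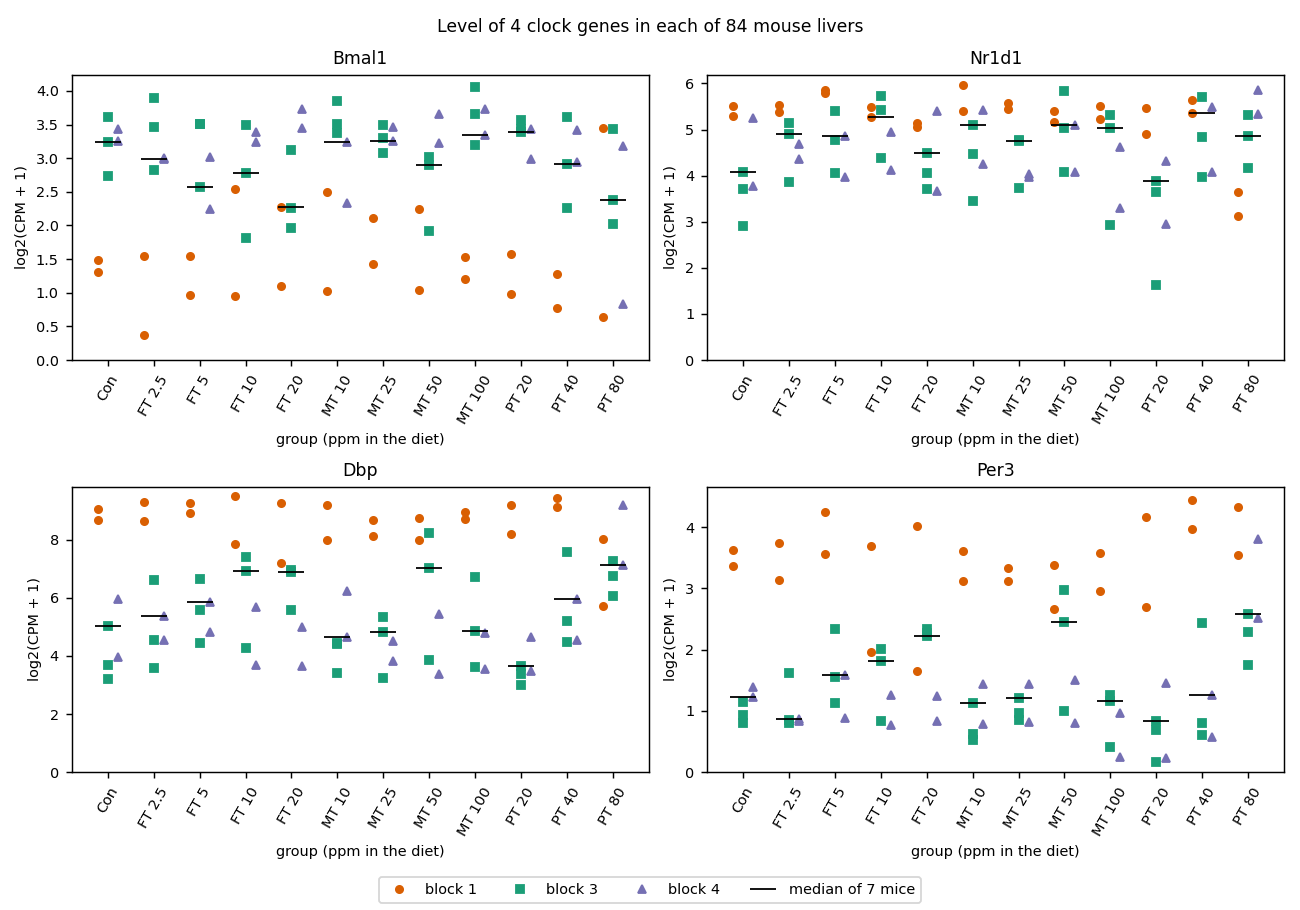
Level of Bmal1, Nr1d1, Dbp and Per3 in each of 84 mice as log2(CPM + 1), by group on the horizontal axis (ppm of OPP in the diet). Symbols mark the block and bars the median of the 7 mice of the group. The block 1 mice lie apart in most groups, and the PT 80 ppm mice of block 1 lie at 52.1 and 260 CPM for Dbp, under both control mice of their block.

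PT 80 ppm was the only dose at which edgeR called clock genes against control. Per3, Tef and Dbp were higher than in the control group, by 3.16, 2.52 and 4.17 times, while Bmal1, Clock, Npas2 and Nr1d1 were not called. In the same comparison 18.6% of all genes were called (9.73% higher), and 3.30% at a fold change of at least 2, which all 3 members met. The median log2 fold change of the 7 members was 0.28, beside 0.01 over all genes.

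For Per3 the 2 control mice of block 1 were at 11.3 and 9.34 CPM, the 3 of block 3 at 0.900, 0.746 and 1.22 CPM, and the 2 of block 4 at 1.33 and 1.62 CPM. The PT 80 ppm mice were at 10.7 and 18.996 CPM in block 1, 2.38, 4.96 and 3.88 CPM in block 3, and 4.74 and 12.9 CPM in block 4. The groups did not overlap within blocks 3 and 4 but did within block 1, and the log2 fold change was 1.66 ± 0.48 (adjusted p = 0.00914 by edgeR).

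For Tef the control mice were at 4.62 and 3.27 CPM in block 1, 0.600, 0.653 and 0.406 CPM in block 3, and 0.801 and 0.682 CPM in block 4. The PT 80 ppm mice were at 5.15 and 8.02 CPM in block 1, 1.14, 1.85 and 2.68 CPM in block 3, and 3.13 and 5.62 CPM in block 4. Every PT 80 ppm mouse lay above every control mouse of its block, and the log2 fold change was 1.34 ± 0.41 (adjusted p = 0.0145 by edgeR).

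For Dbp the control mice were at 531 and 413 CPM in block 1, 8.33, 11.7 and 31.4 CPM in block 3, and 14.7 and 61.2 CPM in block 4. The PT 80 ppm mice were at 52.1 and 260 CPM in block 1, 65.3, 154 and 105.95 CPM in block 3, and 138 and 590 CPM in block 4. Dbp was thus higher than in every control mouse of the block in blocks 3 and 4 and lower in block 1, and the log2 fold change over all mice was 2.06 ± 0.67 (adjusted p = 0.0214 by edgeR).

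All 3 calls rested on the block 4 mouse named PT 80 ppm replicate 7, in which Dbp was at 590 CPM and Bmal1 at 0.779 CPM. Without it the log2 fold changes were 1.10 for Per3 (adjusted p = 0.0867), 1.02 for Tef (0.0674) and 0.98 for Dbp (0.293). Dbp was also not called without control replicate 4 (1.90, adjusted p = 0.0519), with mice isolated by EA alone (1.90, 0.0792) or by limma on log2(CPM + 1) (1.22, 0.187). With no term for block, 0 members were called. The share of all genes called in these other fits was not recorded. Sphk2 at Dbp had a log2 fold change of -0.17 at PT 80 ppm and was not called.

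**Figure D4:**
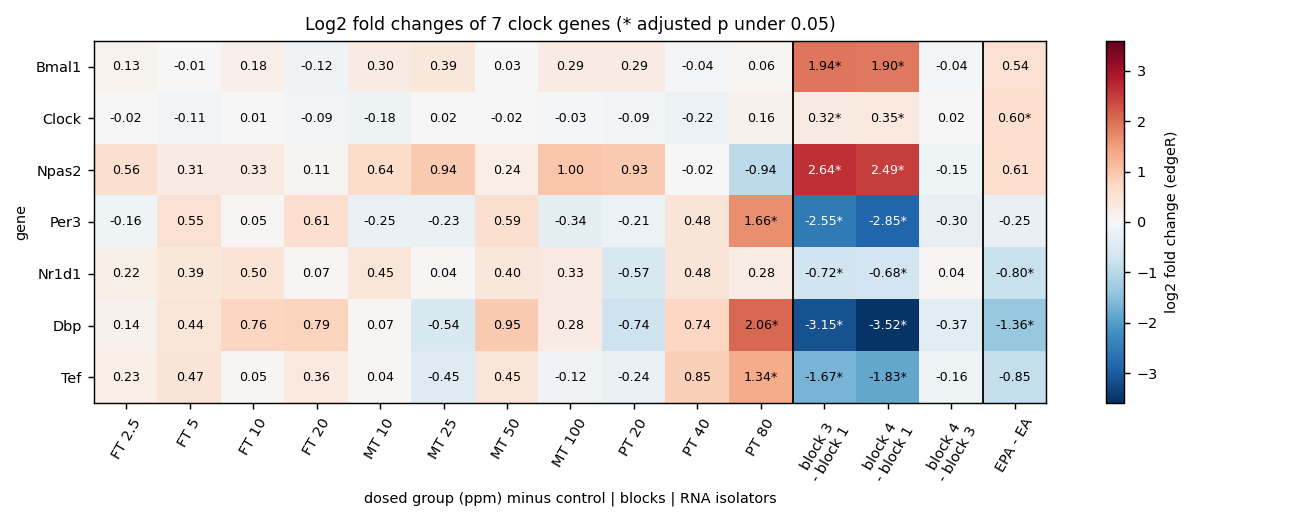
Log2 fold changes of 7 clock genes by edgeR, with the genes on the vertical axis and, on the horizontal axis, the 11 dosed groups against control, 3 contrasts between blocks and RNA isolator EPA against EA. Colour gives the value printed in each cell, and a star marks an adjusted p under 0.05. Stars stand in the PT 80 ppm column for Per3 (1.66), Dbp (2.06) and Tef (1.34), in both columns against block 1 for all 7 genes, and in the isolator column for Clock, Nr1d1 and Dbp.

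PT 80 ppm was also set against PT 20 ppm, which leaves out the control mice. PT 20 ppm held the lowest median of the 12 groups for Dbp, Per3 and Nr1d1, so a difference can come from either group. Here 4 members were called, beside 21.9% of all genes (11.4% higher and 10.4% lower). Dbp (log2 fold change 2.79 ± 0.68), Per3 (1.87 ± 0.47) and Tef (1.58 ± 0.40) were higher at 80 ppm, and Npas2 was lower (-1.88 ± 0.49, adjusted p = 0.00353 by edgeR). Against control Npas2 was not called at either dose (0.93 ± 0.46 at PT 20 ppm and -0.94 ± 0.55 at PT 80 ppm). The PT 20 ppm mice had Npas2 at 0.0856 and 0 CPM in block 1, 1.58, 1.98 and 1.97 CPM in block 3, and 1.42 and 1.37 CPM in block 4. The PT 80 ppm mice were at 0 and 0 CPM, 0.968, 0.504 and 0.462 CPM, and 0.324 and 0.0865 CPM in the same blocks, with no overlap in blocks 3 and 4. The matching contrasts of FT 20 ppm against 2.5 ppm and of MT 100 ppm against 10 ppm called 0 members by edgeR, DESeq2 and limma, with 0 at an unadjusted p under 0.05, beside 0% and 0.0384% of all genes.

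The change at PT 80 ppm differed between blocks. The test of the PT 80 ppm by block interaction called 4 of the 7 members, Nr1d1 (adjusted p = 0.00129), Dbp (0.00326), Per3 (0.0197) and Bmal1 (0.0273), beside 19.5% of all genes. For Nr1d1, Dbp and Bmal1 the fitted change had 1 sign in block 1 and the other in block 4.

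Nr1d1 was at 44.5 and 38.1 CPM in the control mice of block 1, and at 11.6 and 7.77 CPM in the PT 80 ppm mice, below all 22 other mice of the block. In block 3 the control mice were at 6.53, 15.9 and 12.1 CPM and the PT 80 ppm mice at 38.9, 28.1 and 17.1 CPM. In block 4 they were at 12.6 and 37.4 CPM and at 39.4 and 57.4 CPM. The PT 80 ppm group thus held the lowest mean of the 12 groups in block 1 and the highest in block 4, with log2 fold changes of -2.07 ± 0.59, 0.31 ± 0.44 and 1.23 ± 0.48 in blocks 1, 3 and 4. Thra, on the other strand, was called in this interaction too (adjusted p = 0.00926), and the part of shared reads in the result was not tested.

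Bmal1 behaved unevenly within the PT 80 ppm group. The control mice were at 1.80 and 1.48 CPM in block 1, 11.2, 8.49 and 5.69 CPM in block 3, and 9.79 and 8.53 CPM in block 4. The PT 80 ppm mice were at 9.93 and 0.561 CPM in block 1, 9.77, 4.20 and 3.05 CPM in block 3, and 8.09 and 0.779 CPM in block 4. The 2 PT 80 ppm mice of block 1 were the highest and the 2nd lowest of the 24 mice of that block, and the lower mouse of block 4 was the lowest of blocks 3 and 4. The fitted log2 fold changes were 1.47 ± 0.57 in block 1, -0.50 ± 0.49 in block 3 and -0.80 ± 0.61 in block 4.

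For Dbp the log2 fold changes were -1.48 ± 0.94 in block 1, 1.15 ± 0.74 in block 3 and 3.62 ± 0.77 in block 4. For Per3 they were 0.55 ± 0.58, 1.13 ± 0.58 and 3.07 ± 0.60. Tef, not called in the interaction (adjusted p = 0.0724), had 0.89 ± 0.50, 0.74 ± 0.52 and 2.42 ± 0.54. Within block 4, 3 members were called (Per3, Dbp and Tef), beside 3.66% of all genes, within block 1, 2 members (Nr1d1 and Bmal1), beside 30.9%, and within block 3, 0 by edgeR with 0 at an unadjusted p under 0.05, beside 6.71%. Most of the interaction calls rested on 2 mice. Without PT 80 ppm replicate 1 (block 1, Bmal1 at 9.93 CPM) 1 member was called, without replicate 7 (block 4) 1 as well, and by limma 2. The share of all genes called in these 3 fits was not recorded, so the counts describe the members alone.

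**Figure D5:**
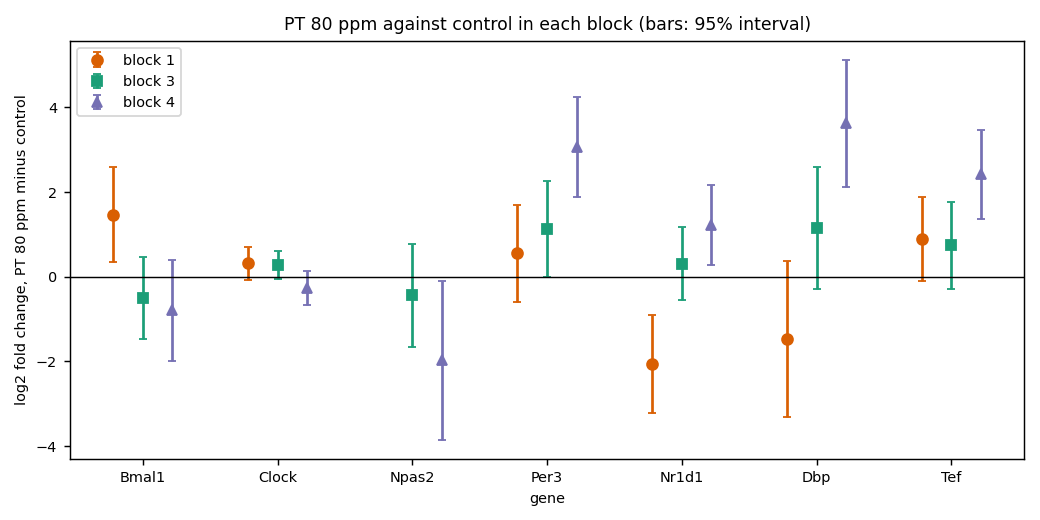
Log2 fold change of PT 80 ppm against control in each block for 7 clock genes, from 1 edgeR model with a PT 80 ppm by block term, with genes on the horizontal axis and bars for the 95% interval. Npas2 is not drawn in block 1, where both PT 80 ppm mice had 0 counts. Nr1d1 lies at -2.07 in block 1 and 1.23 in block 4, and Dbp at -1.48 and 3.62.

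Per1, a period gene that responds directly to glucocorticoid and cAMP signals, lay under the minimum for testing, as did Per2. Its counts were 2, 0, 0, 0, 0, 4 and 2 in the 7 control mice. They were 33, 12, 6, 2, 5, 2 and 3 in the 7 PT 80 ppm mice. Those of block 1 at PT 80 ppm, at 3.03 and 0.962 CPM, were above all 22 other mice of the block, whose highest value was 0.557 CPM. With no minimum on counts, edgeR gave Per1 a log2 fold change of 2.68 ± 0.71 (adjusted p = 0.00647 over 17683 genes, 10.5% of them called) at PT 80 ppm against control and 1.97 ± 0.62 (adjusted p = 0.0240, 11.9% called) against PT 20 ppm. Per2 was called in neither comparison of that fit (0.25 ± 0.83, adjusted p = 0.940, and 2.21 ± 0.87, adjusted p = 0.0847).

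Between blocks the same fit called both genes for block 4 against block 1, where 22.2% of all genes were called. Per1 ran from 0 to 3.03 CPM in block 1 (median 0.183), from 0 to 0.530 CPM in block 3 (median 0.156) and from 0 to 0.356 CPM in block 4 (median 0.0855). Per2 ran from 0 to 0.432 CPM in block 1 (median 0.0798), from 0 to 0.370 CPM in block 3 and from 0 to 0.256 CPM in block 4 (medians of 0). The ranges overlapped and the medians lay under the floor. Per1 was lower in block 4 by a log2 fold change of -1.32 ± 0.40 (adjusted p = 0.0104 by edgeR) and Per2 by -1.49 ± 0.48 (adjusted p = 0.0166), the direction of Per3. For block 3 against block 1 neither was called (Per1 -0.76, adjusted p = 0.0950, Per2 -0.64, adjusted p = 0.262, with 23.6% of all genes called), and the F test over blocks called both (adjusted p = 0.0238 and 0.0466, with 23.4% called).

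Genes around the clock were read at PT 80 ppm from lists as well, against the same 18.6% of all genes. Of 11 output genes of the liver clock 9 were called, 8 higher and 1 lower, with a median log2 fold change of 1.40 beside 0.01 over all genes. Those higher were Por (2.33 ± 0.32), Cyp7a1, the rate-limiting enzyme of bile acid synthesis (2.24 ± 0.54), Lpin1, a phosphatidate phosphatase (2.03 ± 0.47), Nr1i3, the receptor CAR (1.78 ± 0.24), Noct (1.69 ± 0.50), Upp2 (1.29 ± 0.35), Nampt (0.79 ± 0.21) and Gys2, the liver glycogen synthase (0.76 ± 0.25). Elovl3 was lower (-2.70 ± 0.47). Of 13 other clock factors and regulators 3 were called, a share near that over all genes. All 3 were higher, namely Hlf (1.82 ± 0.28), the E-box repressor Bhlhe40 (1.02 ± 0.26) and the kinase gene Csnk1e (0.40 ± 0.11). At FT 20 ppm and MT 100 ppm 0 genes of either list were called by edgeR, against 0% and 0.0768% of all genes.

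Genes that respond to signals able to set the liver clock were read in the same comparison, in which 18.6% of all genes were called, and in the interaction with block, in which 19.5% were. Of 4 glucocorticoid targets 3 were called higher at PT 80 ppm, Fkbp5 (log2 fold change 2.94 ± 0.38), Tat (1.57 ± 0.43) and Tsc22d3 (0.96 ± 0.25). All 4, with Sgk1, were called in the interaction. By median Fkbp5 and Tsc22d3 were higher as well, but Tat was not (4.45 CPM, against 4.98 CPM for control mice). Of 14 feeding and fasting genes 4 were called, a share near that over all genes. Igfbp1 (3.00 ± 0.69) and Ppargc1a (1.10 ± 0.21) were higher, and the lipogenic genes Pnpla3 (-2.47 ± 0.56) and Scd1 (-2.18 ± 0.37) lower. Their medians moved in the same directions. For Igfbp1 the median rose only from 17.7 CPM (control) to 26.4 CPM (PT 80 ppm), less than its fitted change. Of 3 tested temperature and heat shock genes 2 were higher, Cirbp, a cold-inducible RNA binding protein (0.85 ± 0.19), and Hspa8 (0.77 ± 0.19). The part of these genes in the clock results was not tested.

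Cell type markers at PT 80 ppm were read beside these results, against 18.6% of all genes called, and with so few markers in a list the counts cannot be set apart from that share. Of 4 tested Kupffer cell markers Cd5l and Clec4f were lower, and the 5 markers summed to between 10.0 and 87.4 CPM (median 70.5) at PT 80 ppm and to between 66.8 and 141 CPM (median 87.1) in the control group. Of 2 tested leukocyte markers Ptprc was lower, with sums of 8.83 to 35.7 CPM against 21.3 to 47.2 CPM. Of 6 hepatocyte markers Cps1 and Tat were called higher, although Tat was not higher by median. Of 3 stellate markers Dcn was higher, and none of 4 endothelial markers was called. Cd5l and Ptprc also differed in the PT 80 ppm by block interaction (adjusted p = 0.0372 and 0.0135 by edgeR). Their part in the result was not tested.

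RNA isolator was the last factor of the model. Clock was higher in EPA than in EA mice (log2 fold change 0.60 ± 0.11, adjusted p = 5.97e-06 by edgeR), and Nr1d1 (-0.80 ± 0.33, adjusted p = 0.0445) and Dbp (-1.36 ± 0.56, adjusted p = 0.0469) were lower, beside 38.7% of all genes called. In the 7 combinations of group and block with mice of both isolators, Clock and Bmal1 were higher in the EPA mouse in 7 of 7 and Dbp in the EA mice in 7 of 7. In the control mice of block 4, for example, Dbp was at 14.7 CPM in the EPA mouse and 61.2 CPM in the EA mouse. A pair isolated by EA alone also differed, with Dbp at 22.6 and 61.99 CPM in the PT 40 ppm mice of block 4. Each of the 3 EPA mice of block 4 had the lower animal number of its pair. In that block the lower-numbered mouse had less Dbp in 12 of 12 groups, so isolator and number order cannot be told apart there. No PT mouse was isolated by EPA, so the isolator touches 2 of the 7 control mice in the PT comparisons and none of the PT mice.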

How the data were processed

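TempO-Seq of liver RNA from 84 mice was read from 2 tables. Per the labels and the study's methods, the authors trimmed the reads in Partek Flow, aligned them to mm39 and estimated counts per Ensembl gene with Partek E/M. The deposited expected counts are not normalized, and 14.8% of them were not whole numbers (tolerance 0.001). The authors also deposited log2 values of CPM, adjusted for block and RNA isolator, which are entered here as a score and served only as an alternative. No column of values was left unmapped (0).

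Counts were rounded and tested with edgeR 4.0.16 (quasi-likelihood, TMM) in R 4.3.3, in 1 model of group, block and RNA isolator over 84 mice, restricted to 10415 genes whose median count exceeded 8. P-values were adjusted over all genes tested (Benjamini-Hochberg), with a threshold of 0.05. Intervals are 95% normal intervals from the SE. DESeq2 1.42.0 and limma 3.58.1 were alternatives, with Python 3.11.15, numpy 2.4.6, pandas 2.3.3, scipy 1.17.1 and matplotlib 3.10.9. Other alternatives were the scaling, the filter, the covariates, the mice, the blocks and the pseudocount (1 or 0.1). CPM were computed from the counts. Floors of 3 counts cover counting error only. Symbols and positions were looked up in GENCODE (GRCm39, which is mm39) and found for 17660 of 17695 identifiers.

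The members and lists were chosen with earlier results of these data known. The text names all members, the 5 genes most and least like Dbp and Bmal1 (1 of them is not reported here), and the genes of the lists called at PT 80 ppm, and list genes named for blocks were chosen after their values were seen. In simulated data for PT 80 ppm against control (10415 genes), 92 of 100 genes with a log2 fold change of 1 and 99 of 100 with 2 were recovered, with 4 false calls. For block 3 against block 1, 200 of 200 were recovered, with 7 false calls. The changed genes were drawn at random from all 10415, and no other difference between blocks, groups or isolators was simulated. Dbp, Nr1d1, Per3 and Bmal1 ranked 14th, 76th, 154th and 167th of all genes in residual SD. The shares recovered do not carry over to such variable genes.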

Additional observations from a re-analysis of the deposited data

Results flagged for a closer look

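The change at PT 80 ppm against control differed between blocks for Nr1d1 (adjusted p = 0.00129 by edgeR's F test of the interaction), Dbp (0.00326), Per3 (0.0197) and Bmal1 (0.0273). Each of these is listed because the difference itself passed a test. With 2 or 3 mice of a block in each group, 1 mouse weighs heavily, as the values without PT 80 ppm replicates 1 and 7 show.

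In 4 of 108 combinations of a gene and a group of 7, the highest mouse stood apart from the rest by Dixon's ratio at the 95% level. The ratio was taken over the 3 blocks together. The rate of about 1 in 20 by chance holds for mice of 1 block and does not apply where blocks differ. Npas2 was at 2.57 CPM (29 counts) in 1 FT 2.5 ppm mouse of block 3, with the other 6 mice at 0.961 CPM or less (ratio 0.590). Per1 was at 3.03 CPM in PT 80 ppm replicate 1, with the others at 0.962 CPM or less (ratio 0.582). Per2 was at 0.432 CPM in 1 MT 50 ppm mouse (ratio 0.717), which is 3 counts. Per3 was at 11.9 CPM in 1 FT 10 ppm mouse, with the others at 3.01 CPM or less (ratio 0.576). The last 3 of these mice belonged to block 1. For Per3 the median of block 1 was 10.7 CPM, so the flagged FT 10 ppm mouse was not apart from its block.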

How the results depend on the processing

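The block contrasts kept all 7 calls for blocks 3 and 4 against block 1 and 0 for block 4 against block 3 under every alternative run. The calls at PT 80 ppm moved more. Against control 3 members were called, and 0 with no block term, 1 with control and PT mice alone, in fits to the mice of 1 block alone 1 for block 1, 0 for block 3 and 0 for block 4. Nr1d1 (log2 fold change -2.19, adjusted p = 6.67e-06) and Dbp (-1.64, adjusted p = 0.123) had the other sign in the fit to block 1. Leaving out each control and each PT 80 ppm mouse in turn gave 0 to 3 calls, with 0 without PT 80 ppm replicate 7. Against PT 20 ppm 4 members were called, 4 to 5 with 1 mouse left out, and 0 with no block term. The interaction called 4 members, 2 by limma, and 1 to 6 with 1 mouse left out. The isolator term called 3 members, 1 by limma with a pseudocount of 0.1 and 1 with the order of animal numbers in the model. The share of all genes called was not recorded for these alternatives, except for some comparisons with no minimum on counts. Their counts therefore describe the members alone. Without the group, block and isolator terms, r of Bmal1 and Dbp lay between -0.85 and -0.80 within blocks.

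Limma on the deposited log2 values, already adjusted for block and isolator, gave other counts where edgeR called 0, namely 3 members at FT 5 ppm, 2 at FT 10 ppm, 1 at MT 10 ppm, 1 at MT 25 ppm, 2 at MT 50 ppm, 1 at PT 20 ppm and 2 at PT 40 ppm, and by F test 3 over FT doses and 5 over MT doses. The model of these fits held a term for group alone, and the share of all genes called in them was not recorded. The counts can therefore not be read as results about the members. The cause of these changes was not tested. Of the remaining values of single members, 192 of 203 with 1 mouse left out and 328 of 363 under other alternatives kept direction and call. Of 1350 values that were never past the threshold, 175 had the other sign under an alternative. No paired analysis was possible because the labels give no replicate numbers, and the block term stands in the model instead. Depth limits Per1, Per2 and, in block 1, Npas2.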

Other observations

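The labels give each mouse an animal number, whose meaning is not given in the sources used here. Its order within a group and block was looked at after the clock values had been seen. In block 4, the higher-numbered of the 2 mice had more Dbp, Per3 and Nr1d1 in 12 of 12 groups and less Bmal1 in 12 of 12. In block 1 the higher-numbered mouse had more Dbp in 10 of 12 groups and less Bmal1 in 11 of 12, but more Nr1d1 in 4 of 12 and less in 8. In block 3 the last-numbered of 3 mice had more Dbp than the first in 10 of 12 groups, more Nr1d1 in 11 and less Bmal1 in 10. When a term for this order was added to the edgeR model, no member passed for it in any block (for Dbp in block 4, a log2 fold change of 1.37 ± 0.46 with unadjusted p = 0.00371 and adjusted p = 0.848; for Bmal1 in block 1, -1.40 ± 0.32, unadjusted p = 4.87e-05 and adjusted p = 0.169). Over all 10415 genes, 0 were called for this order in block 1 and 0 in block 4. In block 3, 0 were called for the 2nd mouse and 4 for the last. With so few calls over all genes, the lack of calls among members says nothing about them in particular. Of the 7 mice isolated by EPA, 4 had the lowest number of their group and block, and with the order in the model Clock alone was called between isolators.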
